A study of Homo sapiens with 6 samples.

Results

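The genes described here carry out antigen processing and presentation, the route by which a cell displays fragments of its proteins to T cells on molecules of the major histocompatibility complex (MHC). They were taken as the entries of the deposited expression table whose symbol starts with HLA-, together with a named set of peptide-loading, immunoproteasome and regulator genes, which gave 40 of 17758 genes. All 28 named symbols were found, 12 further HLA- entries came from the prefix, and 39 genes are described individually. The cells were T47D, an established human breast ductal carcinoma line that is positive for the oestrogen receptor. They carried lentiviral short hairpin RNA, either a non-targeting control (shNC, 3 libraries) or a hairpin against CUEDC1 (shCUEDC1, 3 libraries), and poly(A)-selected RNA was sequenced. Both groups were stably transduced lines in the same growth medium, and the labels name no interferon or other agent. The number of hairpins is not stated, and off-target effects and the loss of CUEDC1 cannot be told apart. The libraries of a group are described as biological replicates, without a statement of separate infections, and any p-value below therefore reflects only how far these libraries scatter, which may be technical.

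MHC class I molecules consist of a heavy chain and the light chain beta-2 microglobulin (B2M), and nearly all nucleated cells carry them. Their peptides are cut by the proteasome, whose immunoproteasome form holds the inducible subunits PSMB8, PSMB9 and PSMB10, are pumped into the endoplasmic reticulum by TAP1 and TAP2, trimmed by ERAP1 and ERAP2 and loaded with the help of tapasin (TAPBP) and calreticulin (CALR). Class II molecules, typical of antigen-presenting cells but also made by some epithelial tumours, pair an alpha with a beta chain, travel with the invariant chain CD74 and receive peptides from endosomes through HLA-DM. The activator NLRC5 acts on class I genes and CIITA on class II genes, both through a promoter-bound complex with RFX5, RFXAP and RFXANK, and interferon gamma raises most of the pathway.

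Promoter sequences of RefSeq (build GRCh38.p14), each the 250 bases before an annotated gene start, were matched by symbol to 32 of the 39 genes, with 47 entries. Promoters of 5 genes are shown as examples from the class I, proteasome, chaperone and class II genes whose values are described. They are printed 5′ to 3′ on the gene's strand. Capitals mark matches, on either strand, to the motifs given after the sequences.
HLA-B (chr6:31357180-31357429, minus strand): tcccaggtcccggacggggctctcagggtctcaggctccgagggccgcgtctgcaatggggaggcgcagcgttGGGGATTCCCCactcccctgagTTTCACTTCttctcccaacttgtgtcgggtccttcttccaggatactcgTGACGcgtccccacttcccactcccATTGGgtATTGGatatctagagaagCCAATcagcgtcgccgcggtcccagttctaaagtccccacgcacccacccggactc
B2M (chr15:44711267-44711516, plus strand): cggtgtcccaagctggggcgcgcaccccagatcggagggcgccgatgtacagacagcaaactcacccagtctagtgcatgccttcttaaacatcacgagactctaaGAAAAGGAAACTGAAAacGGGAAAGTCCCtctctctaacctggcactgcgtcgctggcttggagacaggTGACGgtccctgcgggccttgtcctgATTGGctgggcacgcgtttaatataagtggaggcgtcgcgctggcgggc
PSMB8 (chr6:32844680-32844929, minus strand): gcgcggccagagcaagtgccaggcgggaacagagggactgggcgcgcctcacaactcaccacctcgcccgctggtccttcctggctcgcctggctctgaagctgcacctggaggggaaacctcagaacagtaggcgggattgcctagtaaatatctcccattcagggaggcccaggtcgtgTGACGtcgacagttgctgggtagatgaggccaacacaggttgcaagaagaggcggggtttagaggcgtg
CALR (chr19:12938359-12938608, plus strand): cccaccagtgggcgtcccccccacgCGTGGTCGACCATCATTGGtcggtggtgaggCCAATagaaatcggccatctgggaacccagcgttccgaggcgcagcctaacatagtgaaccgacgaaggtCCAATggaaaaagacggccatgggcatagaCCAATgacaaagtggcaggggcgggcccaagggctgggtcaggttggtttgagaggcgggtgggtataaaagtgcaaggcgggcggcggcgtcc
HLA-DRB1 (chr6:32589849-32590098, minus strand): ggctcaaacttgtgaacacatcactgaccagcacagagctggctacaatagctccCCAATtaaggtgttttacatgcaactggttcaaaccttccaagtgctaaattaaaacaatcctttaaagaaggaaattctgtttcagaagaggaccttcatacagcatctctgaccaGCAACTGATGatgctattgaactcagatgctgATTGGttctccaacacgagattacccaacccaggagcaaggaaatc

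The motifs were chosen with these sequences in view. The interferon-stimulated response element (ISRE) was written as GAAA, 2 free bases and GAAA, and in the shorter class I form as GAA, 2 free bases and GAAA, and matches to the 2 forms can overlap. The kappa B site was GGGA, 4 free bases and CC. The core shared by the X2 box of MHC promoters and the cyclic AMP response element was TGACG, the X1 core was GCAAC, 1 free base and GATG, and the inverted CCAAT box was ATTGG. The ER stress element was CCAAT, 9 free bases and CCACG, and every match to it holds a CCAAT box within it. Over 35116 promoters of the same length, the ISRE was found in 3.02%, its class I form in 6.56%, kappa B in 22.6%, TGACG in 21.2%, the X1 core in 0.12%, ATTGG in 32.0% and the ER stress element in 0.074%. Among the 47 entries the same motifs were found in 8, 6, 14, 15, 2, 25 and 3. The HLA-B promoter held the class I form of the ISRE 155 to 147 bases before the start, 2 overlapping kappa B matches and a TGACG match. In B2M a pair of overlapping ISRE matches lay between 144 and 129 bases before the start. CALR and CANX were the only matched genes with the ER stress element, and HLA-DRB1 and HLA-DRB5 the only ones with the X1 core. The CANX matches to the ER stress element were the same site, counted in overlapping entries. Neither ISRE form was found in the 8 class II chain or 5 class II loading genes searched, and the PSMB8 window shown held TGACG alone. These matches are descriptions of letters in the windows, not of bound sites.

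The libraries held between 18924327 and 19731609 estimated reads. CUEDC1 was between 70.6 and 80.5 TPM (a level per gene length, scaled to the same total in each library) in shNC and between 22.8 and 24.4 TPM in shCUEDC1, a log2 change of -1.68 (95% interval -1.85 to -1.51). The control library shNC 3 stood apart. The SD over genes of the log2 difference was 0.107 between shNC 1 and shNC 2, against 0.236 and 0.256 between shNC 3 and these. Pairs of shCUEDC1 libraries gave 0.117 to 0.124, and pairs that crossed the groups without shNC 3 gave 0.231 to 0.239. Group comparisons of the antigen presentation genes described in full are therefore given with and without shNC 3. That library was left out because of its values in these data, and the controls kept were the most alike pair. Intervals and p-values without shNC 3 can therefore be too small. A rise or fall called only in that fit describes the libraries kept and is not taken as established.

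Few of these genes differed between the groups, and by small amounts. Of 39 genes tested, the immunoproteasome subunit PSMB8 and the chaperone CALR were higher in shCUEDC1 and the endosomal protease CTSS was lower (edgeR, Benjamini-Hochberg adjusted p below 0.05 over all 13824 genes tested). That is 7.69% of the genes tested, against 9.96% of all genes (5.19% higher, 4.77% lower). Their median log2 change was 0.06, against -0.004 over all genes. Of all 13824 genes tested, 3478 had an unadjusted p below 0.05, as did 10 of these 39. Without shNC 3, 10 were higher and 1 was lower, which is 28.2%, against 28.1% of all genes in the same fit (14.3% higher, 13.8% lower). Both shares are thus close to those of all genes. In CPM (counts relative to each library's TMM-scaled total), 12 of the 39 had groups that did not overlap, or 9 with all shCUEDC1 libraries above and 3 with all below, while 31.3% of all genes did not overlap (15.7% above, 15.5% below). The RNA is from whole cultures, so a change in the number of cells that make a transcript and a change in RNA per cell cannot be told apart.

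Class I messages were among the most abundant in these cells, and class II messages were also plentiful. By mean TPM, B2M ranked 5, HLA-B 11, HLA-C 35, CALR 69 and CD74 80 among all 17758 genes. All members of the class I route that are described here summed to between 15389 and 18957 TPM per library, and the class II chains and loading genes to between 2936 and 3836 TPM. The transactivators were far lower, with NLRC5 at 5.89 to 8.23 TPM and CIITA at 4.40 to 6.05 TPM. HLA-DQB2, at 0.09 to 0.69 TPM, was too low to be tested.

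**Figure D1:**
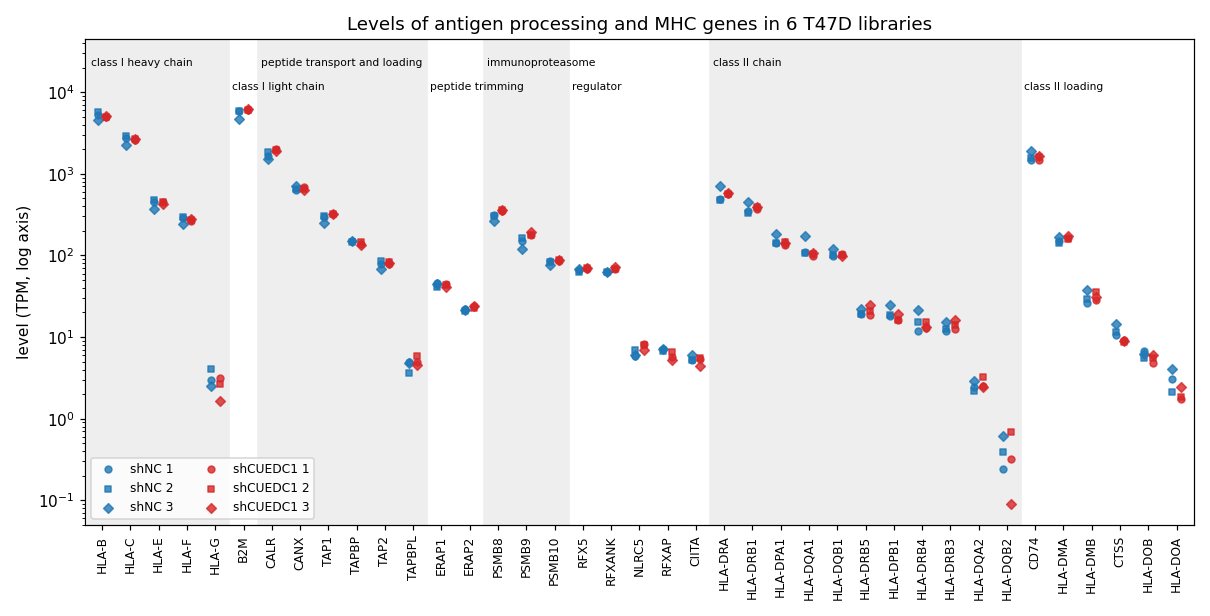
Level of each gene (TPM, log axis) in the 6 libraries, grouped by role, blue for shNC and red for shCUEDC1, with the library number given by the symbol. Levels run from B2M at 4642 to 6270 TPM to HLA-DQB2 below 1 TPM, and shNC 3 (blue diamond) lies below the other libraries in most class I genes and above them in most class II genes.

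None of the class I heavy chains described here was called (0 of 5 by edgeR, 0 by DESeq2, and 0 at an unadjusted p below 0.05). HLA-B, a classical heavy chain that presents peptides to CD8 T cells, had 5257, 5642 and 4623 TPM in shNC 1, 2 and 3 and 4928, 4991 and 5096 TPM in shCUEDC1. HLA-C, the other classical chain described and also a ligand of inhibitory receptors of natural killer cells, had 2743, 2945 and 2280 TPM in shNC and 2628, 2676 and 2696 TPM in shCUEDC1. In both, the 3 shCUEDC1 libraries lay between shNC 3 and the other 2 controls, so the groups overlapped. The log2 change was -0.02 for HLA-B (95% interval -0.19 to 0.15) and 0.03 for HLA-C (-0.18 to 0.24). Without shNC 3 they were -0.11 (-0.19 to -0.02, adjusted p = 0.0507, edgeR) and -0.08 (-0.16 to 0.01).

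Among the non-classical chains, HLA-E, which shows leader peptides of other class I chains to natural killer cells, had 449, 474 and 373 TPM in shNC and 448, 458 and 429 TPM in shCUEDC1. HLA-F, a non-classical chain with restricted peptide binding, had 286, 295 and 245 TPM in shNC and 265, 274 and 277 TPM in shCUEDC1. For each, shNC 3 was the lowest of the 6 and shNC 2 the highest. Their log2 changes were 0.07 (-0.13 to 0.26) and 0.004 (-0.18 to 0.19), and without shNC 3 they were -0.04 (-0.12 to 0.04) and -0.09 (-0.17 to 0.004). HLA-G, best known from the placenta, was at 1.64 to 4.02 TPM, on 18 to 38 estimated reads per library, and its interval spanned -0.93 to 0.38.

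B2M, the light chain of every class I molecule, had 5851, 5954 and 4642 TPM in shNC and 6018, 6073 and 6270 TPM in shCUEDC1. All 3 shCUEDC1 libraries were above all 3 controls, close to shNC 1 and 2 and far from shNC 3. Its log2 change was 0.18 (-0.04 to 0.40, adjusted p = 0.283, edgeR), and 0.07 (-0.01 to 0.15) without shNC 3. The ratio of B2M to HLA-B in TPM was 1.11, 1.06 and 1.00 in shNC and 1.22, 1.22 and 1.23 in shCUEDC1. This ratio is a description that was not tested, and it was lowest in shNC 3.

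Among the genes of peptide transport and loading, 1 of 6 was called. CALR, a calcium-binding lectin chaperone of the endoplasmic reticulum and part of the peptide-loading complex, had 1675, 1827 and 1513 TPM in shNC and 2023, 1981 and 1908 TPM in shCUEDC1. All shCUEDC1 libraries were above all controls, and shNC 3 was the lowest. CALR rose by a log2 change of 0.26 (SE 0.07, 95% interval 0.10 to 0.42, adjusted p = 0.0468, edgeR), and by 0.19 (0.11 to 0.27) without shNC 3. The call was lost on leaving out shNC 1 or any shCUEDC1 library, with adjusted p up to 0.163. Its membrane-bound relative calnexin (CANX) also held the ER stress element, in some but not all of its promoter entries. CANX had 626, 655 and 700 TPM in shNC and 686, 643 and 629 TPM in shCUEDC1. Its log2 change was 0.01 (-0.10 to 0.12), and 0.04 (-0.04 to 0.12) without shNC 3.

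TAP1, a subunit of the peptide pump whose gene lies beside PSMB9, had 293, 302 and 252 TPM in shNC and 319, 321 and 318 TPM in shCUEDC1. The shCUEDC1 values were nearly equal and all above the controls. The log2 change was 0.21 (0.04 to 0.37, adjusted p = 0.117, edgeR), not called, and TAP1 rose by 0.12 (0.04 to 0.20, adjusted p = 0.0185) without shNC 3. Its partner TAP2 was lower in level, at 69.1 to 84.9 TPM, with a change of 0.09 (-0.07 to 0.24). TAPBP, the tapasin that bridges TAP and the class I molecule, had 149, 146 and 150 TPM in shNC and 140, 145 and 133 TPM in shCUEDC1. With CTSS and RFXAP, it was among the 3 genes with every shCUEDC1 library below every control, with a change of -0.06 (-0.16 to 0.04), also -0.06 (-0.15 to 0.02) without shNC 3. TAPBPL, a tapasin relative that edits peptides outside the loading complex, was at 3.63 to 5.80 TPM and was not called.

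PSMB8 was the gene of the immunoproteasome that was called. This subunit (LMP7) had 314, 308 and 265 TPM in shNC and 351, 361 and 358 TPM in shCUEDC1, with no overlap and shNC 3 lowest. PSMB8 rose by a log2 change of 0.30 (SE 0.07, 0.13 to 0.46, adjusted p = 0.0312, edgeR), which is 22.9%, and by 0.22 (0.13 to 0.30) without shNC 3. It was called with any 1 control library left out and lost its call with any 1 shCUEDC1 library left out, with adjusted p up to 0.135. PSMB9 (LMP2) had 151, 163 and 121 TPM in shNC and 180, 179 and 192 TPM in shCUEDC1, again without overlap. Its change of 0.37 (0.12 to 0.61) was not called by edgeR (adjusted p = 0.069) and was called by DESeq2 (adjusted p = 0.0112). Without shNC 3 PSMB9 rose by 0.24 (0.14 to 0.35, adjusted p = 0.000649, edgeR). PSMB10, the third inducible subunit, was at 76.3 to 88.4 TPM, with a change of 0.12 (-0.04 to 0.28).

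Each inducible subunit takes the place of a constitutive one, PSMB8 of PSMB5, PSMB9 of PSMB6 and PSMB10 of PSMB7, so their ratios within a library do not depend on its scaling. The ratio of PSMB8 to PSMB5 was 1.84, 1.90 and 1.35 in shNC and 1.70, 1.70 and 1.66 in shCUEDC1. The groups overlapped, and the log2 ratio differed by 0.01 (exact two-sided permutation test, p = 1.0). PSMB5 itself rose. PSMB5 had 171, 162 and 196 TPM in shNC and 207, 213 and 216 TPM in shCUEDC1, a log2 change of 0.29 (0.14 to 0.44, adjusted p = 0.0245, edgeR), and it was called without shNC 3 but not with any other library left out. Without shNC 3 the log2 ratio of PSMB8 to PSMB5 differed by -0.15, so its direction depended on that library.

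The other pairs differed more. The ratio of PSMB9 to PSMB6 was 0.752, 0.832 and 0.584 in shNC and 0.895, 0.925 and 0.915 in shCUEDC1, a log2 difference of 0.35 (exact permutation p = 0.1). The ratio of PSMB10 to PSMB7 was 0.125, 0.133 and 0.124 in shNC and 0.135, 0.148 and 0.143 in shCUEDC1, a log2 difference of 0.16 (exact permutation p = 0.1). In both, every shCUEDC1 library was above every control, and 0.1 is the smallest p that 3 against 3 libraries allow, before any adjustment over the 3 ratios. Without shNC 3 the PSMB9 to PSMB6 difference was 0.21. PSMB6 and PSMB7 were not called, with log2 changes of 0.03 (-0.10 to 0.16) and -0.04 (-0.16 to 0.09).

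**Figure D2:**
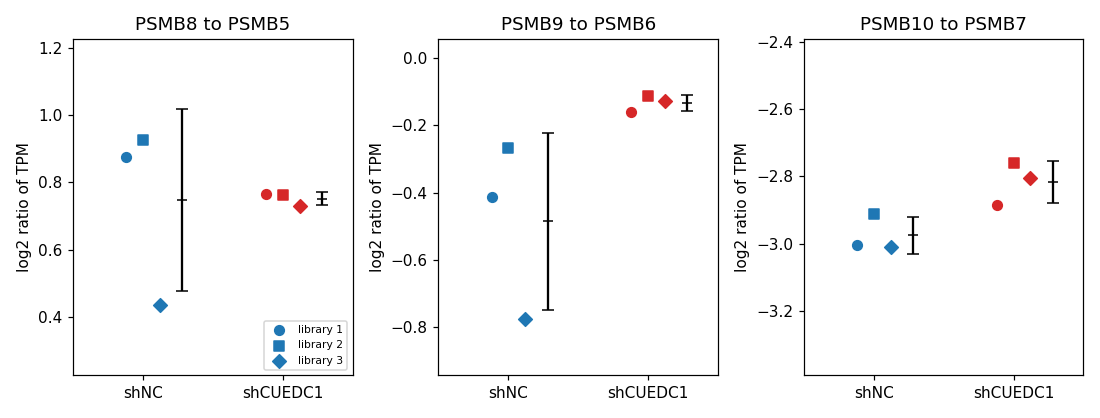
Log2 ratio of TPM of each inducible proteasome subunit to the constitutive subunit it replaces, per library (points) with the group mean and SD (bars, n = 3). The shCUEDC1 points lie above all shNC points for PSMB9 to PSMB6 and PSMB10 to PSMB7, and between the shNC points for PSMB8 to PSMB5, and shNC 3 (diamond) is the lowest point of each panel.

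The trimming aminopeptidases of the endoplasmic reticulum were not called. ERAP1 was at 40.9 to 45.4 TPM with a change of -0.001 (-0.12 to 0.11). ERAP2 was at 20.7 to 22.2 TPM in shNC and 22.6 to 24.0 TPM in shCUEDC1, all above, with a change of 0.16 (0.03 to 0.29, adjusted p = 0.125, edgeR), and it rose by 0.15 (adjusted p = 0.0434) without shNC 3.

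No regulator was called with all libraries (0 of 5 by edgeR, 0 by DESeq2, 2 at an unadjusted p below 0.05). NLRC5, the class I transactivator, had 5.89, 6.95 and 5.99 TPM in shNC and 8.23, 7.96 and 6.96 TPM in shCUEDC1. Every shCUEDC1 library was above every control, though shCUEDC1 3 and shNC 2 were nearly equal. Its change was 0.32 (0.09 to 0.56, adjusted p = 0.0823, edgeR), and it rose by 0.26 (adjusted p = 0.0309) without shNC 3. CIITA, the class II transactivator, had 5.20, 5.22 and 6.05 TPM in shNC and 5.33, 5.48 and 4.40 TPM in shCUEDC1, which overlapped, with a change of -0.13 (-0.33 to 0.07). Of the RFX subunits, RFX5 (63.0 to 69.9 TPM, change 0.11) and RFXANK (61.9 to 71.2 TPM, change 0.17) were above the controls in every shCUEDC1 library in CPM, and RFXAP (5.25 to 7.12 TPM, change -0.23) was below them. RFX5 rose without shNC 3 (0.12, adjusted p = 0.0348), and the other two were not called there.

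**Figure D3:**
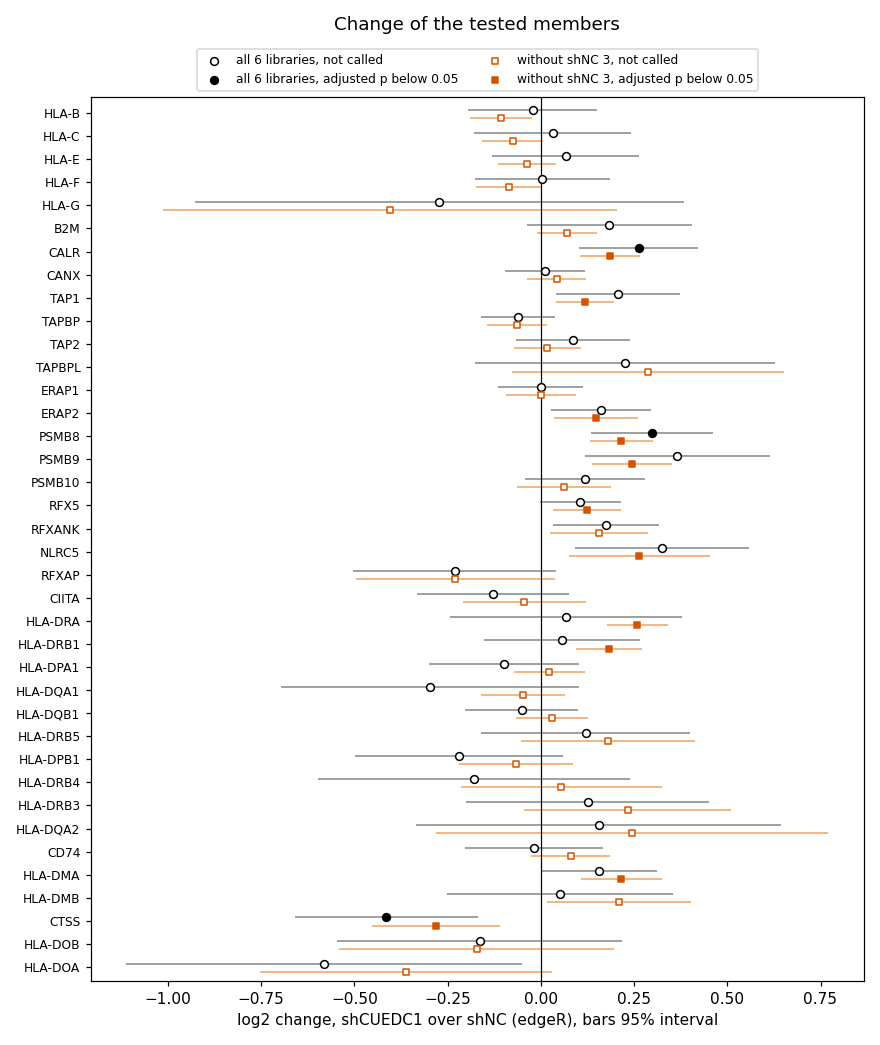
Log2 change (shCUEDC1 over shNC, edgeR) of each tested gene with its 95% interval, in all 6 libraries (black circles) and without shNC 3 (orange squares), filled where the adjusted p is below 0.05. With all libraries PSMB8, CALR and CTSS are filled, and without shNC 3 most intervals are narrower and 11 genes are filled.

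No class II chain was called with all libraries (0 of 10 tested by edgeR, 0 by DESeq2, 0 at an unadjusted p below 0.05), and here the controls differed among themselves more than the groups did. HLA-DRA, the nearly invariant alpha chain of HLA-DR, had 489, 479 and 708 TPM in shNC and 560, 572 and 585 TPM in shCUEDC1. HLA-DRB1, its main beta chain, had 348, 335 and 446 TPM in shNC and 368, 387 and 393 TPM in shCUEDC1. In both, the shCUEDC1 libraries lay between shNC 3 above and shNC 1 and 2 below. The log2 changes were 0.07 (-0.24 to 0.38) and 0.06 (-0.15 to 0.26). Without shNC 3 they were 0.26 (0.18 to 0.34, adjusted p = 9.22e-06, edgeR) and 0.18 (0.09 to 0.27, adjusted p = 0.00182). These p-values leave out the spread that shNC 3 adds to the controls. Without shNC 1, or without shNC 2, the change of HLA-DRA was -0.01 or -0.02, so its sign turned on which control was kept.

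HLA-DP and HLA-DQ chains were called neither with nor without shNC 3. HLA-DPA1, the alpha chain of HLA-DP, had 141, 141 and 182 TPM in shNC and 134, 146 and 144 TPM in shCUEDC1. HLA-DQA1, the alpha chain of HLA-DQ, had 110, 107 and 175 TPM in shNC and 97.6, 105 and 108 TPM in shCUEDC1. HLA-DQB1, its partner, had 98.9, 102 and 121 TPM in shNC and 103, 100.7 and 99.8 TPM in shCUEDC1. In each the highest library was shNC 3, and the others lay close together. Their changes were -0.10 (-0.30 to 0.10), -0.30 (-0.70 to 0.10) and -0.05 (-0.20 to 0.10), and without shNC 3 they were 0.02 (-0.07 to 0.12), -0.05 (-0.16 to 0.06) and 0.03 (-0.07 to 0.13). Whether HLA-DR differed from HLA-DP and HLA-DQ in this respect was not tested.

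The levels of the alpha and beta chains of a pair were compared within each library. Per length, HLA-DRA was 1.40 to 1.59 times HLA-DRB1 over the 6 libraries, HLA-DQA1 was 0.944 to 1.45 times HLA-DQB1, and HLA-DPA1 was 7.30 to 9.01 times HLA-DPB1. HLA-DPB1 was at 16.3 to 25.0 TPM. The further beta chains HLA-DRB3, HLA-DRB4 and HLA-DRB5 were at 11.9 to 24.6 TPM, and HLA-DQA2 at 2.18 to 3.25 TPM. These paralogues are uncertain: of the 50-base windows of the longest GENCODE v29 transcript, 9.92% in HLA-DRB1, 8.42% in HLA-DRB5 and 9.53% in HLA-DQA1 also occur in transcripts of other genes, and the line's own alleles need not match the reference. The corresponding shares were 2.54% in HLA-B and 6.71% in HLA-C, and 0% in HLA-DRA, B2M, CALR and PSMB8, while PSMB9 shared 12.1% and PSMB10 38.9% with other annotated transcripts of their loci. HLA-DPA1 and HLA-DPB1 overlap in the annotation on opposite strands, as do PSMB9 and TAP1, and the counting's use of strand is not given in the sources used here.

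Among the 6 genes that load class II molecules, CTSS was lower and the rest were not called. CTSS, the cathepsin that removes the last part of the invariant chain, had 10.6, 11.4 and 14.6 TPM in shNC and 9.30, 8.70 and 8.88 TPM in shCUEDC1. All shCUEDC1 libraries were below all controls, and shNC 3 was the highest. CTSS fell by 0.41 on the log2 scale (SE 0.11, -0.66 to -0.17, adjusted p = 0.0415, edgeR), and by 0.28 (-0.45 to -0.11, adjusted p = 0.0107) without shNC 3. The call was lost on leaving out shNC 2 or any shCUEDC1 library, with adjusted p up to 0.167.

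CD74, the invariant chain that fills the class II groove until peptide is loaded, had 1491, 1555 and 1887 TPM in shNC and 1489, 1627 and 1654 TPM in shCUEDC1, a change of -0.02 (-0.20 to 0.17), and 0.08 (-0.03 to 0.19) without shNC 3. HLA-DMA, a chain of the peptide exchanger HLA-DM, had 149, 141 and 167 TPM in shNC and 165, 159 and 175 TPM in shCUEDC1. Its change was 0.16 (0.001 to 0.31, adjusted p = 0.195, edgeR), and it rose by 0.21 (0.11 to 0.32, adjusted p = 0.00253) without shNC 3. HLA-DMB, the other chain, was at 26.3 to 38.2 TPM with a change of 0.05 (-0.25 to 0.36). The chains of HLA-DO, which restrains HLA-DM, were low, HLA-DOA at 1.76 to 4.02 TPM and HLA-DOB at 4.78 to 6.82 TPM. HLA-DOA had the most negative fitted change of the set, -0.58 (-1.11 to -0.05, adjusted p = 0.161, edgeR), and overlapped between the groups.

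A pattern of these genes also lay within the control group. In shNC 3 the class I route was low and the class II genes were high. The 18 class I route genes were the heavy chains, B2M, transport, loading, trimming, immunoproteasome and NLRC5. In CPM, shNC 3 was the lowest of the 6 libraries in 13 of these and the highest in 0. Of 16 class II chain and loading genes it was the highest in 11 and the lowest in 0. Over all genes tested, also in CPM, shNC 3 was the lowest in 26.9% and the highest in 26.9%. In TPM, shNC 3 was instead the highest in CANX and TAPBP, and it was not the lowest in NLRC5 and ERAP2. Relative to the mean of shNC 1 and 2 in log2 CPM, the median in shNC 3 was -0.26 for the class I route and 0.33 for class II, and -0.001 over all genes. In TPM the medians were -0.23 and 0.38, with 0.04 over all genes, and the directions were the same with CPM unscaled or scaled by RLE size factors. The pattern was seen in the data before it was counted, and it is 1 library, so it has no replicate.

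By gene, shNC 3 was below the other controls by 0.38 for B2M, 0.36 for HLA-C, 0.35 for HLA-E and 0.41 for PSMB9 on the log2 scale, and above them by 0.63 for HLA-DQA1, 0.59 for HLA-DRB4 and 0.50 for HLA-DRA. The genes that did not follow, or hardly did, were CANX (0.08 above), TAPBPL (0.17 above), ERAP1 (-0.005), TAPBP (-0.02), ERAP2 (-0.05) and HLA-DOB (-0.02). CIITA was 0.23 higher and NLRC5 0.19 lower in shNC 3 than in the other controls. The epithelial keratin KRT8 moved in the same library, at 2585 TPM in shNC 3 against 3879 to 4175 TPM in the other libraries, and PGR was at 60.6 TPM against 34.5 to 43.9 TPM. Their part in the pattern was not tested.

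**Figure D4:**
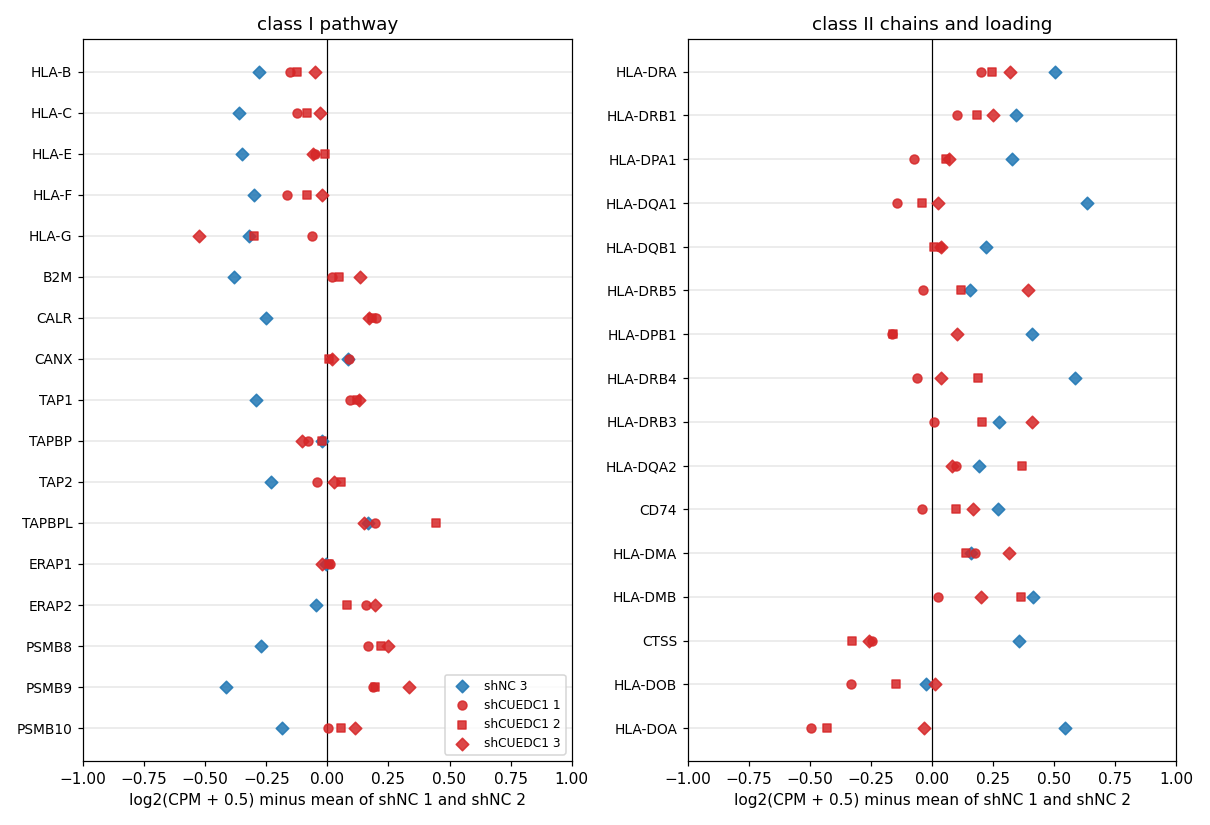
Level of each tested class I route gene (left, 17 genes, the regulators not drawn) and class II gene (right, 16 genes) in shNC 3 (blue) and the shCUEDC1 libraries (red), as log2(CPM + 0.5) minus the mean of shNC 1 and 2 (vertical line at 0). The blue points lie left of the line in most class I genes, down to -0.41 for PSMB9, and right of it in all class II genes but HLA-DOB, up to 0.63 for HLA-DQA1.

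Genes around the pathway were read from lists, beside the 9.96% of all genes called. Without shNC 3, 14.3% of all genes were called higher and 13.8% lower. With all libraries, DESeq2 called 785 genes higher and 662 lower. Of 14 constitutive proteasome subunits, activators and assembly factors, 3 were called, all higher. PSME2, a subunit of the PA28 activator that opens the proteasome for peptide release, had 405, 413 and 439 TPM in shNC and 554, 538 and 581 TPM in shCUEDC1. Its partner PSME1 had 456, 427 and 480 TPM in shNC and 547, 539 and 551 TPM in shCUEDC1. Neither overlapped between the groups, and both kept their call whichever library was left out. PSME2 rose by 0.44 (0.32 to 0.56, adjusted p = 0.0012, edgeR) and PSME1 by 0.29 (0.18 to 0.40, adjusted p = 0.00613), with lower adjusted p than any of the antigen presentation genes. The third was PSMB5. The median over the list was 0.03.

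Of 18 genes of interferon signalling found, 2 were higher and 2 were lower. IRF9, the subunit that brings the type I interferon factor complex to the ISRE, was at 87.0 to 92.4 TPM in shNC and 100.5 to 104.6 TPM in shCUEDC1, and rose by 0.23 (0.11 to 0.35, adjusted p = 0.0237, edgeR). IFNGR1, the ligand-binding chain of the interferon gamma receptor, had 115, 111 and 143 TPM in shNC and 93.6, 96.1 and 89.0 TPM in shCUEDC1, and fell by 0.37 (-0.55 to -0.20, adjusted p = 0.0168). STAT3, which acts mainly downstream of other cytokines, fell by 0.19 (-0.30 to -0.08, adjusted p = 0.0372). IRF9, IFNGR1 and STAT3 were separate between the groups, and all 3 lost their call with any 1 shCUEDC1 library left out (IRF9 also without shNC 2, STAT3 also without shNC 1 or shNC 2), with adjusted p up to 0.108 for IRF9, 0.0938 for IFNGR1 and 0.146 for STAT3.

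Of 24 MHC promoter factors and chromatin regulators, 1 was higher, the E-box factor USF1 (0.20, adjusted p = 0.0492, edgeR), and the median was -0.02. Of 17 chaperones and quality-control genes of the endoplasmic reticulum, 2 were higher: SEL1L (0.28, adjusted p = 0.0378), an adaptor of the degradation machinery, and BCAP31 (0.24, adjusted p = 0.0474), an export receptor that binds class I chains. Of 12 peptidases of cytosol and endoplasmic reticulum, 1 was lower, the prolyl peptidase PREP (-0.29, adjusted p = 0.0303). USF1, SEL1L, BCAP31 and PREP each lost their call without shNC 1 and with any 1 shCUEDC1 library left out, and USF1, SEL1L and PREP also without shNC 2. None of the 4 was called by limma-trend, and USF1 and BCAP31 were not called by limma-voom.

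Of 17 further endosomal genes tested, 1 was higher and 1 lower. CTSB, a lysosomal cathepsin, was at 124 to 134 TPM in shNC and 155 to 162 TPM in shCUEDC1, and rose by 0.33 (0.22 to 0.44, adjusted p = 0.00329, edgeR), in the opposite direction to CTSS, whichever library was left out. LAMP2, a lysosomal membrane protein, fell by 0.16 (adjusted p = 0.0474), and the call was lost with any 1 library other than shNC 3 left out, without the filter on low counts, and by limma-trend.

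Of 13 class I-related molecules and ligands of the receptor NKG2D, which alerts natural killer cells, 2 were called, both lower. RAET1L had 30.1, 30.8 and 20.02 TPM in shNC and 14.5, 15.7 and 13.04 TPM in shCUEDC1, and fell by 0.88 (-1.27 to -0.50, adjusted p = 0.0122, edgeR). ULBP3 had 5.85, 6.35 and 6.31 TPM in shNC and 4.18, 4.29 and 4.60 TPM in shCUEDC1, and fell by 0.47 (-0.72 to -0.22, adjusted p = 0.0268). Both are NKG2D ligands, their groups did not overlap, and both lost their call with any 1 shCUEDC1 library left out (ULBP3 also without shNC 1 or shNC 2), with adjusted p up to 0.074 and 0.127. ULBP3 was also not called by DESeq2 (adjusted p = 0.0584). Over the list, DESeq2 called 1 gene higher and 1 lower, and edgeR without shNC 3 called 2 higher and 6 lower of the 13. That last fit called 14.3% of all genes higher and 13.8% lower. The median over this list was -0.11, against -0.004 over all genes.

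Of 19 surface molecules read by T and natural killer cells, 2 were higher. ICAM1, an adhesion ligand of lymphocytes, was at 63.0 to 72.7 TPM in shNC and 80.9 to 92.4 TPM in shCUEDC1, and rose by 0.35 (0.19 to 0.51, adjusted p = 0.0131, edgeR). NECTIN2, a ligand of the lymphocyte receptor TIGIT, was at 102 to 115 TPM in shNC and 121 to 134 TPM in shCUEDC1, and rose by 0.29 (0.15 to 0.43, adjusted p = 0.0186). ICAM1 lost its call without shNC 1, shCUEDC1 2 or shCUEDC1 3, and NECTIN2 without shNC 1 or any 1 shCUEDC1 library.

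Markers of the line and of other cell types were read in the same libraries. The luminal markers ESR1 (34.5 to 44.9 TPM), GATA3 (342 to 372 TPM) and EPCAM (363 to 389 TPM) were present in every library. TFF1, an oestrogen-responsive secreted factor, rose by 1.01 (adjusted p = 0.00427, edgeR). It was the only one of 12 luminal markers called by edgeR with all libraries, against 2 higher by DESeq2 and 6 higher without shNC 3. Without shNC 3, 14.3% of all genes were called higher and 13.8% lower. Defining markers of leukocytes and of antigen-presenting cells were at or near 0 in libraries that held HLA-DRA at 479 to 708 TPM: PTPRC at 0.63 to 1.33 TPM, and CD3E, CD79B, CSF1R, ITGAX and CD163 at 0 to 0.11 TPM. Over the lists, 6 of 7 leukocyte markers found summed to 18.3 to 20.7 TPM in shNC and 18.6 to 20.7 TPM in shCUEDC1, 7 of 9 T and natural killer cell markers to 3.07 to 4.32 and 3.76 to 3.89 TPM, and 5 of 6 B cell markers to 0.83 to 1.56 and 1.66 to 1.96 TPM. Markers named from these lists for their level were PTPN6 (9.57 to 11.7 TPM) and LCP1 (5.05 to 6.46 TPM) for leukocytes, KLRD1 (1.23 to 2.43 TPM) and CD8A (0.91 to 1.51 TPM) for T and natural killer cells, and CD79A (0 to 0.12 TPM) for B cells. Of the leukocyte, T and natural killer cell, and B cell markers 4, 3 and 1 passed the filter on low counts. None of these was called by edgeR or DESeq2 with all libraries or had an unadjusted p below 0.05, and 1 leukocyte marker was called lower without shNC 3.

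For the B cell list and the 2 lists that follow, the sum was higher in every shCUEDC1 library than in any shNC library. The 10 of 12 macrophage and dendritic cell markers found summed to 13.7 to 15.6 TPM in shNC and 20.5 to 22.7 TPM in shCUEDC1, with LYZ, a secreted lysozyme that epithelial cells also make, the only gene called (1.68, adjusted p = 0.000386, edgeR). The 9 fibroblast and endothelial markers summed to 12.2 to 14.5 and 20.1 to 21.8 TPM. COL1A1 was the only one called by edgeR with all libraries (0.61, adjusted p = 0.00843), against 2 higher by DESeq2 and 2 higher without shNC 3. Without shNC 3, 14.3% of all genes were called higher. The part of these markers in the changes of antigen presentation genes was not tested.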

How the data were processed

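RNA of 6 T47D libraries was compared, 3 shNC against 3 shCUEDC1, grouped by their titles. The deposited table gives, per the file headers, read counts, which are estimated counts per gene that the authors did not normalise, with 21.8% to 24.7% of a library's values whole. It also gives FPKM, which the authors scaled to gene length and library size, and TPM, which the authors scaled to gene length and the same total in each library. A further deposited signal column, the counts rounded up and divided by 1 size factor per library, was used in no result. The build was GRCh38 (p13), per the submitters' processing notes. Aligner, counting program and strand setting were not given in the sources used here.

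For the tests the counts were rounded, genes were kept by filterByExpr (minimum count 10) and libraries were scaled by TMM. The robust quasi-likelihood fit of edgeR 4.0.16 (R 4.3.3) gave p-values, adjusted by the Benjamini-Hochberg method over all genes tested. Tested on simulated data, this fit gave a larger share of false calls than the adjusted p threshold of 0.05 allows, and recovered smaller changes less often than larger ones. CPM are counts scaled by TMM, and levels between genes are deposited TPM. Ratios of subunits were compared by exact permutation tests, 3 in all.

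Described in full are the genes called and those with a mean of at least 100 TPM, with the rest given by range. Of each of 14 lists, up to 4 called genes with the smallest p were named, or, with none called, the 2 with the highest TPM. The genes and lists were chosen with earlier results of these data known. KRT8, PGR and the class I and class II groups of the shNC 3 comparison were picked after their values were seen. So were the markers named near 0 and the higher ones given beside them. A few genes that these rules take are left out of the text, though counts and sums over members and lists include them.

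Alternatives were RLE size factors, no filter, a filter of 1 CPM in 3 libraries, DESeq2 1.42.0, limma-voom (limma 3.58.1), limma-trend on log2(FPKM + 0.5) and log2(FPKM + 0.1), a replicate block, ratios from counts, and each library left out. With 1 group at 2 libraries, the spread is pooled over both groups. Promoters came from RefSeq (GRCh38.p14) and shared windows from GENCODE v29.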

Additional observations from a re-analysis of the deposited data

How the results depend on the processing

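CUEDC1 was called lower under every alternative run, and PSME1, PSME2 and CTSB higher. Over all genes, the number called higher was 272 to 1996 and lower 196 to 1929 when 1 library was left out, with the highest counts without shNC 3, and 561 to 785 and 514 to 662 under the other alternatives. Of the antigen presentation genes, 0 to 10 were called higher and 0 to 1 lower when 1 library was left out, with 0 in either direction with any 1 shCUEDC1 library left out, where 6 to 9 had an unadjusted p below 0.05. By limma-trend with either pseudocount 0 were called higher and 0 lower, with 8 at an unadjusted p below 0.05, and by limma-voom 0 were called lower. The unadjusted counts of these fits are not set beside counts over all genes. By DESeq2 PSMB9 was called in addition to PSMB8, CALR and CTSS. With 1 library left out, the log2 change reversed for HLA-B (range -0.106 to 0.0523), HLA-C (-0.0761 to 0.119), HLA-E (-0.0371 to 0.145), HLA-F (-0.0853 to 0.0662), HLA-DRA (-0.0246 to 0.259), HLA-DRB1 (-0.0143 to 0.182), HLA-DPA1 (-0.153 to 0.0227), HLA-DQB1 (-0.097 to 0.0288), CD74 (-0.0775 to 0.0797) and CANX (-0.0176 to 0.0419), and the log2 ratio of PSMB8 to PSMB5 ranged from -0.15 to 0.10. By limma-trend HLA-F was at -0.00266 and -0.00265, and CANX at -0.00726 and -0.00727, with pseudocounts of 0.5 and 0.1. The cause of these reversals was not tested. The ratios of PSMB9 to PSMB6 (0.21 to 0.46) and of PSMB10 to PSMB7 (0.13 to 0.19) kept their direction, with 0.2 the smallest p then possible.

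Libraries of the same number deviated from their group means with correlations of 0.009, 0.071 and 0.027. shNC 2 correlated best with its own number, and shNC 1 and shNC 3 did not. These weak values give no clear sign of pairing by number, but with 3 libraries per group they cannot exclude it. With the replicate block, 603 genes were called higher and 514 lower, and the same 3 antigen presentation genes were called. Of the other genes named from the lists, USF1, SEL1L, BCAP31, PREP, LAMP2 and ULBP3 were not called with the block (edgeR adjusted p = 0.0871, 0.0506, 0.0620, 0.0639, 0.0827 and 0.0515). HLA-G (18 to 38 estimated reads per library) and HLA-DQB2 (1 to 7) are too shallow to show small changes.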
